A study of Mus musculus with 8 samples.

Results

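This account covers 10 genes of osteoclasts, the cells that resorb bone, and of the signals that form them, in the enamel organ of the mouse first molar. They were chosen by name, as the rows of the deposited count table whose gene name is Acp5, Ctsk, Ocstamp, Dcstamp, Calcr, Tnfrsf11a, Tnfsf11, Tnfrsf11b, Csf1 or Nfatc1, and all 10 were found among its 54532 genes. These genes and the lists used below were chosen with earlier results of these data known, so counts over them are a description. Untreated C57BL/6 wt pups were compared at postnatal day 5 (P5), in the secretory stage of enamel formation, and at day 12 (P12), in the maturation stage. Polyadenylated RNA was sequenced from pools of first molar enamel organs from 5 pups each, with 4 such pools, or libraries, per age. By their labels the libraries are numbered 1, 3, 4 and 5 for P5, and 1, 2, 3 and 4 for P12, and p-values measure the spread between these pools. The question put to these genes was whether their transcripts differed in level between the ages.

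A tooth that is about to erupt needs a path through the bone above it, and osteoclasts open that path. Osteoclasts form from precursors of the monocyte and macrophage line. Csf1, a cytokine that binds the receptor Csf1r, keeps the precursors alive. RANKL, encoded by Tnfsf11, binds RANK, encoded by Tnfrsf11a, on the precursor, and osteoprotegerin, encoded by Tnfrsf11b, is a secreted decoy receptor that binds RANKL first. RANK signalling induces the transcription factor Nfatc1, and precursors then fuse with the help of the membrane proteins DC-STAMP (Dcstamp) and OC-STAMP (Ocstamp). Mature osteoclasts make tartrate-resistant acid phosphatase (Acp5), the collagen-cleaving protease cathepsin K (Ctsk) and the calcitonin receptor (Calcr). These genes are not all private to osteoclasts, since stromal cells make the ligands and the decoy receptor.

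The 250 bases before annotated start sites are given for Acp5, Ctsk and Tnfsf11, the 3 genes with such an entry whose log2 fold change was at least 2. Another Acp5 window, at chr9:22130599-22130848, shares 10 bases with an Acp5 exon and is not printed. The sequences come from RefSeq on GRCm38.p6, run 5′ to 3′ on the gene's strand and end at the base before the start. Capitals mark matches on either strand to GGAAA, the core bound by NFAT factors, to GAGGAA, bound by PU.1, to TGANTCA, bound by AP-1, and to CACGTG or CATGTG, bound by MITF. The first and second of these can overlap, in GAGGAAA.
Acp5, upstream start, chr9:22135747-22135996, minus strand: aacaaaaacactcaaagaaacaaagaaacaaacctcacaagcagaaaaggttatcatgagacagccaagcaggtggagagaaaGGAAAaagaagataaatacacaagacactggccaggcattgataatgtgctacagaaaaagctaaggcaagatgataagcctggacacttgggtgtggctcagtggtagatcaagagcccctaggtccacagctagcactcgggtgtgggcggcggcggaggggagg
Acp5, start within the gene, chr9:22131866-22132115, minus strand: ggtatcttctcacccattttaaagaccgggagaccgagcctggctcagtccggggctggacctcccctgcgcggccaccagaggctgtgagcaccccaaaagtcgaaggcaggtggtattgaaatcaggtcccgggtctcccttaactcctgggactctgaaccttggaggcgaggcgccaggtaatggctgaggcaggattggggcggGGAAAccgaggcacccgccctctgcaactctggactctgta
Ctsk, chr3:95498960-95499209, plus strand: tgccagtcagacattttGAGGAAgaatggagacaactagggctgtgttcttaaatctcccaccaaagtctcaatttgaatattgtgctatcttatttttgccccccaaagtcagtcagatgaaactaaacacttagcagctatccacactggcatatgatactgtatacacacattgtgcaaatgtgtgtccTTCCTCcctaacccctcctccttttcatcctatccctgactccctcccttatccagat
Tnfsf11, chr14:78308044-78308293, minus strand: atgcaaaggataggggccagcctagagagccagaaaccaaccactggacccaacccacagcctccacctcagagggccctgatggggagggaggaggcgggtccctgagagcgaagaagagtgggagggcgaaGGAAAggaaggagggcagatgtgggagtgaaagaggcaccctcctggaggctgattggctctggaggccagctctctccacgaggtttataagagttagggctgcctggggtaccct

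Both Acp5 windows printed above held 1 GGAAA core, 167 and 41 bases before their starts, and the Tnfsf11 window held 1, 117 bases before its start. The Ctsk window had no GGAAA match and 2 matches to GAGGAA, 233 and 58 bases before its start. None of these 4 windows held the AP-1 or MITF letters. Over all 32841 windows of this length, 55.6% held GGAAA, 23.3% held GAGGAA, 17.6% held the MITF letters and 6.75% held TGANTCA, so these matches are common. RefSeq windows were found for 6 of the 10 genes. Among the windows not shown, the other Acp5 window held 2 GGAAA matches, 117 and 37 bases before its start, and a match to the MITF letters 90 bases before it. Csf1 held 3 GGAAA matches, Tnfrsf11a held none, and those of Calcr held 1 and 0. No window was found for Ocstamp, Dcstamp, Tnfrsf11b and Nfatc1.

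Total counts were 16574548 to 20262601 at P5 and 17588152 to 22013456 at P12, so that 3 counts, the floor that counting error alone sets, correspond to between 0.136 and 0.181 CPM. Levels are given as normalized counts, the deposited counts divided by each library's effective size and multiplied by the mean effective size. The libraries are labelled as epithelially derived cells, and ameloblast markers summed to between 4979000 and 5616000 normalized counts at P5. Dspp of odontoblasts, at 158600 ± 23100 (SD, n = 4), and the collagen gene Col1a1, at 620300 ± 60100 (SD, n = 4), were also present at P5, so RNA from outside the epithelium was in the pools. edgeR's filter on low counts kept 16440 genes, of which 57.2% differed between the ages at an adjusted p under 0.05, 28.8% being higher and 28.4% lower at P12. Fewer cells of a type and less RNA per cell cannot be told apart in such bulk libraries.

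Osteoclast genes and the genes for RANKL, CSF1 and NFATc1 were higher at P12, whereas the decoy receptor Tnfrsf11b was not called and Calcr had too few reads to be tested. Of the 10 genes, 9 passed the filter, and edgeR's quasi-likelihood test called 8 of these 9 higher at P12, against 28.8% of all tested genes. In 8 of the 10 genes every P12 library lay above every P5 library, which held for 26.0% of the tested genes. Ocstamp, Dcstamp and Tnfsf11 had fewer than 10 reads in each P5 library and passed the filter through their P12 reads, so these counts are a description. The plot of the 10 genes by library shows the same values.

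**Figure D1:**
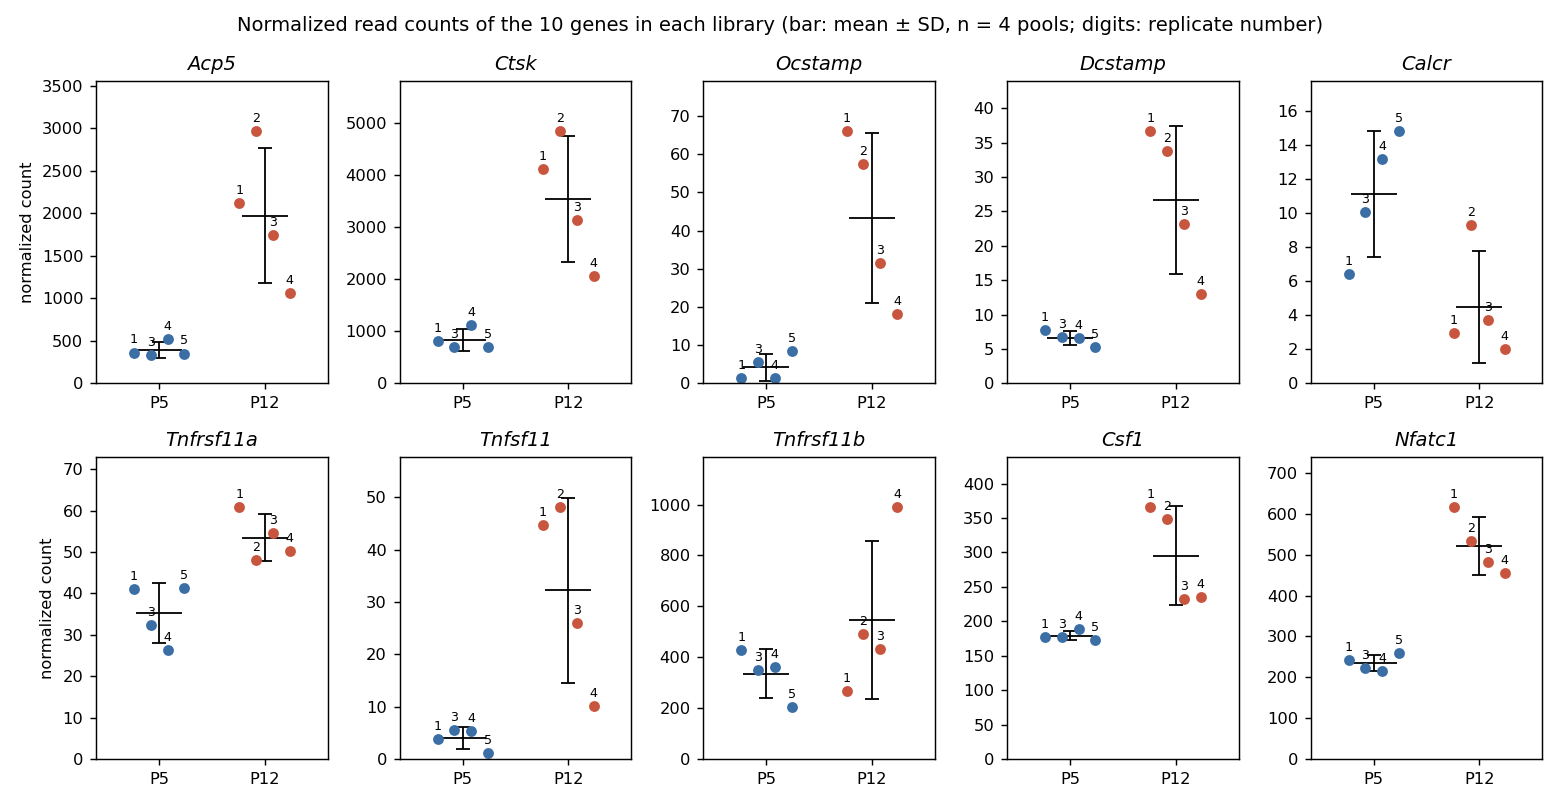
Normalized counts of the 10 genes in each library, P5 beside P12, with replicate numbers as digits and bars for the mean ± SD of 4 pools; each panel has its own axis. The P12 points lie above all P5 points in 8 panels, and the ages overlap for Calcr and Tnfrsf11b.

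Acp5, which encodes the phosphatase used to stain osteoclasts, lies on chromosome 9 at 22126727 to 22135711 (GRCm38). Its P5 libraries 1, 3, 4 and 5 held 361, 328, 522 and 349 normalized counts, whereas P12 libraries 1 to 4 held 2122, 2962, 1743 and 1058. The lowest P12 library was above the highest P5 library. The mean rose from 390.0 ± 89.1 to 1971 ± 794 (SD, n = 4 each), 5.05-fold, with a log2 fold change of 2.34 (SE 0.27, edgeR adjusted p = 2.46e-05). Exons of an antisense gene, 6530413G14Rik, share 6.7% of the exonic bases of Acp5, and that gene was given 0 to 2 counts per library. How reads in the shared bases were counted is not known.

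Ctsk, the gene of the protease that cleaves bone collagen, lies on chromosome 3 at 95499256 to 95509362. Its normalized counts at P5 were 810, 686, 1126 and 690 in libraries 1, 3, 4 and 5. At P12 they were 4109, 4835, 3139 and 2050 in libraries 1 to 4. All P12 pools were above all P5 pools, and at P5 library 4 was the highest for Ctsk as it was for Acp5. The mean rose from 828 ± 207 to 3533 ± 1208 (SD, n = 4 each), 4.27-fold, with a log2 fold change of 2.10 (SE 0.25, edgeR adjusted p = 2.63e-05).

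The fusion genes started from near absence. Ocstamp, on chromosome 2 at 165393760 to 165400405, had 1, 5, 1 and 8 reads at P5 (libraries 1, 3, 4 and 5) against 90, 68, 34 and 18 reads at P12 (libraries 1 to 4). These were 4.17 ± 3.51 and 43.2 ± 22.3 normalized counts (SD, n = 4 each), with no overlap, and Ocstamp rose by a log2 fold change of 3.28 (SE 0.57, edgeR adjusted p = 0.000483). This was the largest fitted fold change among the 9 tested genes, and it rests on 15 P5 reads in all. Dcstamp, on chromosome 15 at 39745930 to 39760938, had 6, 6, 5 and 5 reads at P5 and 50, 40, 25 and 13 at P12. Its mean rose from 6.58 ± 0.99 to 26.7 ± 10.8 normalized counts (SD, n = 4 each), a log2 fold change of 2.02 (SE 0.39, edgeR adjusted p = 0.00102).

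Calcr, on chromosome 6 at 3685680 to 3764714, did not share this direction. It had 5, 9, 10 and 14 reads in the P5 libraries and 4, 11, 4 and 2 in the P12 libraries, or 11.1 ± 3.70 and 4.48 ± 3.27 normalized counts (SD, n = 4 each). The ages overlapped through P12 library 2. The difference in the mean of log2(normalized count + 1) was -1.25, with a two-sided exact permutation p of 0.0571, and Calcr did not pass the filter in the fit over all 8 libraries. In 6 alternative fits in which it passed, the log2 fold change was between -1.08 and -1.47 with adjusted p from 0.0353 to 0.11, under the threshold only without P5 library 1.

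The ligand Tnfsf11 was scarce at P5 and higher in every P12 pool. It lies on chromosome 14 at 78277445 to 78308043, and had 3, 5, 4 and 1 reads at P5 (libraries 1, 3, 4 and 5) against 61, 57, 28 and 10 at P12 (libraries 1 to 4). P12 libraries 1 and 2 held most of these reads. The mean rose from 3.94 ± 2.07 to 32.2 ± 17.7 normalized counts (SD, n = 4 each), 8.16-fold, with a log2 fold change of 3.03 (SE 0.58, edgeR adjusted p = 0.000925).

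Tnfrsf11a, the receptor RANK, changed less. It lies on chromosome 1 at 105780718 to 105847981 and had 41.1, 32.4, 26.4 and 41.3 normalized counts in the P5 libraries and 60.9, 48.1, 54.7 and 50.2 in the P12 libraries. The groups did not overlap, although P12 library 2 and P5 library 5 were close. The mean rose 1.51-fold, from 35.3 ± 7.26 to 53.5 ± 5.64 (SD, n = 4 each), with a log2 fold change of 0.60 (SE 0.21, edgeR adjusted p = 0.0324). This call did not hold in 4 of 8 fits that left out 1 library, those without P5 library 3 (adjusted p = 0.0827), P5 library 4 (0.0884), P12 library 1 (0.0925) or P12 library 3 (0.0661). It also missed the threshold with no filter on low counts (adjusted p = 0.0676).

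Tnfrsf11b, the decoy receptor osteoprotegerin, lies on chromosome 15 at 54250619 to 54278484 and showed no called difference. Its normalized counts were 428, 348, 363 and 203 in the P5 libraries and 267, 491, 433 and 990 in P12 libraries 1 to 4. The ages overlapped, and P12 library 4 stood far above the other pools. The means were 335 ± 94.8 and 545 ± 311 (SD, n = 4 each), a log2 fold change of 0.70 (SE 0.35, edgeR adjusted p = 0.108), and the two-sided exact permutation p was 0.257. Without P12 library 4 the log2 fold change was 0.24 (edgeR adjusted p = 0.391). Without P12 library 1 it was 0.92 (adjusted p = 0.0226), so leaving out 1 library could move the value either way.

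The ratio of ligand to decoy receptor was compared within each library, as log2 of Tnfsf11 over Tnfrsf11b with a pseudocount of 1. It averaged -6.17 ± 0.45 at P5 and -4.09 ± 1.70 at P12 (SD, n = 4 each), a difference of 2.08 (two-sided exact permutation p = 0.114). In P12 libraries 1, 2 and 3 there were 5.97, 10.2 and 16.7 Tnfrsf11b reads for each Tnfsf11 read, against 62.2 to 192 in the P5 libraries. In P12 library 4 there were 98.6, within the P5 range. Without that library the difference was 2.88, with a permutation p of 0.0571, the smallest that 3 against 4 libraries can give. The comparison of all 8 libraries did not pass the threshold, and 1 pool decides how the ages are separated in the plot of ratios.

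**Figure D2:**
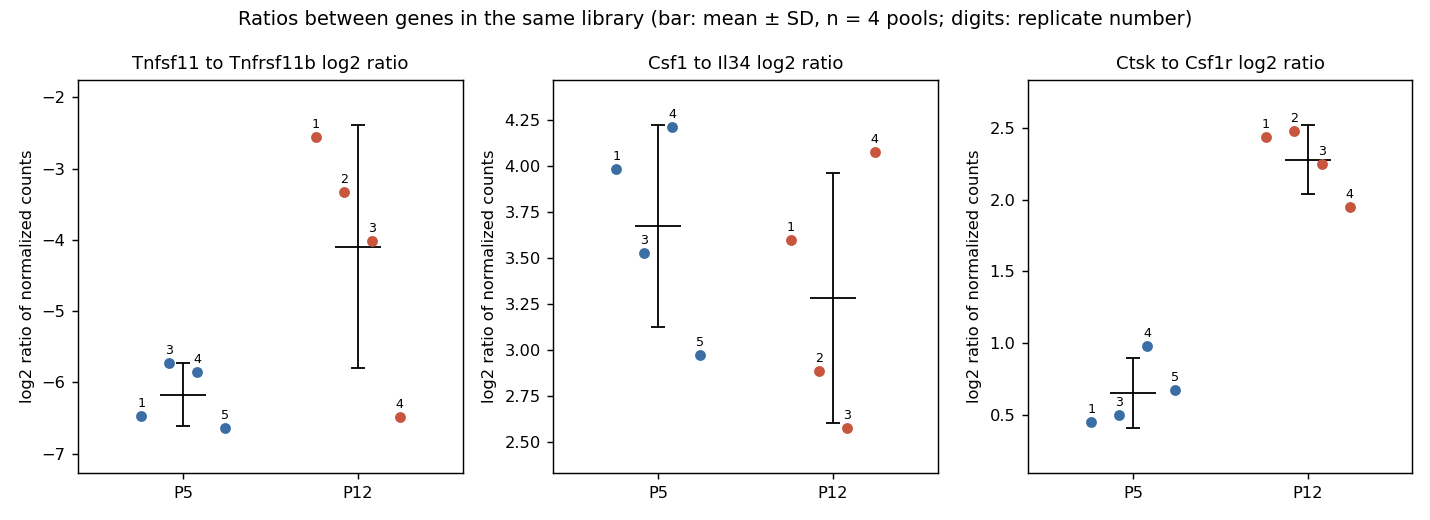
Log2 ratios of normalized counts (each plus 1) between pairs of genes in the same library, for Tnfsf11 to Tnfrsf11b, Csf1 to Il34 and Ctsk to Csf1r; points are libraries with their replicate numbers and bars the mean ± SD of 4 pools. P12 library 4 lies at -6.49 in the first panel, among the P5 libraries, and the ages do not overlap for Ctsk to Csf1r.

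Csf1, the survival factor of osteoclast precursors, lies on chromosome 3 at 107741048 to 107760469. It varied little at P5, with 177, 178, 189 and 173 normalized counts, and had 366, 349, 232 and 236 in P12 libraries 1 to 4. P12 libraries 1 and 2 were again the higher ones. The mean rose from 179 ± 6.74 to 296 ± 71.6 (SD, n = 4 each), a log2 fold change of 0.73 (SE 0.16, edgeR adjusted p = 0.00227). Csf1r, its receptor, rose by a log2 fold change of 0.44 (SE 0.15, edgeR adjusted p = 0.0239), with overlap between the ages. That call was lost without P5 library 3 (adjusted p = 0.0702), P5 library 5 (0.074), P12 library 1 (0.0612) or P12 library 2 (0.0794). Il34, the other ligand of Csf1r, was at 13.8 ± 5.42 and 31.7 ± 14.3 normalized counts (SD, n = 4 each) and rose by 1.18 (SE 0.41, edgeR adjusted p = 0.0288), a call lost without P5 library 1 (adjusted p = 0.078), 3 (0.0628) or 4 (0.0815) or P12 library 2 (0.0902) or 3 (0.0691). The log2 ratio of Csf1 to Il34 was 3.67 ± 0.55 at P5 and 3.28 ± 0.68 at P12 (SD, n = 4 each, two-sided exact permutation p = 0.4).

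Nfatc1, the transcription factor that drives the osteoclast programme, lies on chromosome 18 and had 243, 221, 216 and 258 normalized counts at P5. In P12 libraries 1 to 4 it had 617, 533, 482 and 456. The groups were far apart compared with their spread, 235 ± 19.5 against 522 ± 70.9 (SD, n = 4 each). The log2 fold change was 1.15 (SE 0.11, edgeR adjusted p = 4.74e-06), the smallest adjusted p of the 9 tested genes. NFATc1 also acts in other cells, such as endothelium and lymphocytes. Endothelial marker genes were called higher at P12 in 4 of 4 cases, against 28.8% of all tested genes. The sums of these markers were 2107 to 2532 normalized counts at P5 and 4061 to 4324 at P12. The part of these cells in the Nfatc1 result was not tested.

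Per kilobase of the deposited gene length, which allows levels to be set side by side between genes, Ctsk was the most abundant of the 10 at both ages, with 548 ± 137 normalized counts per kilobase at P5 and 2337 ± 799 at P12 (SD, n = 4 each). Acp5 followed with 192 ± 43.9 and 971 ± 391, and Tnfrsf11b with 119 ± 33.6 and 194 ± 111. The libraries of Ctsk and Acp5 did not overlap at P5 but did at P12. Csf1 and Nfatc1 came next and overlapped each other at both ages, at 33.9 ± 1.28 and 31.6 ± 2.63 per kilobase at P5 and 56.0 ± 13.6 and 70.2 ± 9.53 at P12. Below Tnfrsf11a, at 5.90 ± 1.21 per kilobase, the remaining 4 genes could not be ordered at P5, since each overlapped its neighbour between Calcr at 2.84 and Ocstamp at 1.14. At P12, Tnfsf11, Ocstamp, Dcstamp and Tnfrsf11a overlapped their neighbours between 14.4 and 8.93 per kilobase, and Calcr was lowest at 1.15 ± 0.84.

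**Figure D3:**
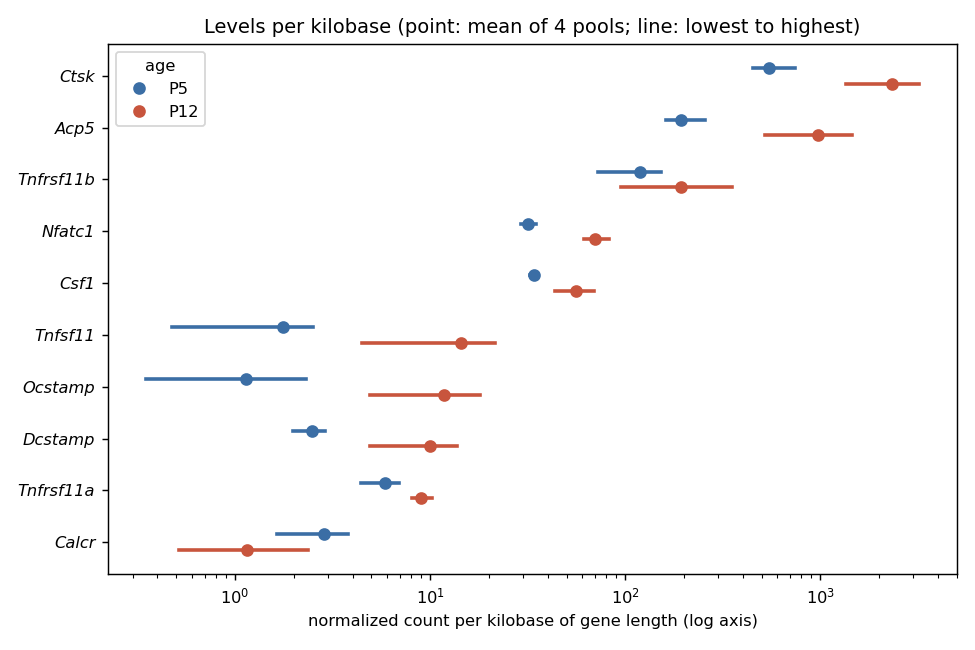
Normalized counts per kilobase of gene length on a log axis, with a point for the mean of 4 pools and a line from the lowest to the highest library, at P5 and P12. Ctsk and Acp5 lead at both ages, while Tnfsf11, Ocstamp and Dcstamp lie near the bottom at P5 and at about the level of Tnfrsf11a at P12.

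Other genes of the resorbing osteoclast moved unevenly. Of 14 listed, 13 were tested, 9 were called higher, 1 lower and 3 were not called, with a median log2 fold change of 0.70. Over all tested genes 28.8% were called higher, and the median was 0.008. Mmp9, a matrix protease of osteoclasts, rose from 516 ± 143 to 2128 ± 758 normalized counts (SD, n = 4 each), a log2 fold change of 2.05 (SE 0.26, edgeR adjusted p = 5.29e-05). Atp6v0d2, a subunit of the proton pump that also takes part in fusion, rose by 2.05 (adjusted p = 5.98e-05), and Oscar, a collagen receptor of osteoclasts, by 1.86 (adjusted p = 0.00209). Tcirg1, another pump subunit, rose by 0.81 (adjusted p = 0.000114).
Siglec15, a surface receptor of osteoclast precursors, did not pass the filter and had 4.13 ± 3.42 and 15.5 ± 9.34 normalized counts at P5 and P12 (SD, n = 4 each, two-sided exact permutation p = 0.0857). Itgb3, the integrin subunit of the sealing zone, rose by 2.98 (adjusted p = 4.41e-08) and was highest in P12 library 4, at 2182 normalized counts against 1377 to 1769 in the other P12 pools, the opposite of Ctsk and Acp5. Car2, carbonic anhydrase, rose by 1.03 (adjusted p = 0.00012) and was likewise not lowest in P12 library 4. Itgb3 and Car2 are also made by other cell types. Src, a kinase needed for the ruffled border and present in most cells, was the gene that fell, by 0.63 on the log2 scale (adjusted p = 6e-06). The 3 genes that were not called, Clcn7, Ostm1 and Slc4a2, had log2 fold changes of 0.0042, 0.15 and -0.36. Ostm1 was called higher without P12 library 1 (0.22, adjusted p = 0.0302), which made the count of higher genes 10. Under total count scaling Clcn7 (0.377, adjusted p = 0.000645) and Ostm1 (0.52, 0.000214) were called higher. The count was then 11, and 8885 of all 16440 tested genes were called higher. Slc4a2 was called lower without P12 library 4 (-0.56, adjusted p = 7.31e-05), and was at 0.0022 under scaling by total count alone, where the median of all tested genes was at 0.38.

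Of 20 genes of RANK signalling, all were tested and 15 were called higher, against 28.8% of all tested genes. None was called lower and 5 were not called, with a median log2 fold change of 0.66. The count of 15 ran from 13 to 16 when 1 library was left out. It was 19 under total count scaling, where 8885 of all 16440 tested genes were called higher. Map3k14 lost its call without P5 library 1 (adjusted p = 0.0872), 3 (0.0857) or 5 (0.0742). It also lost it without P12 library 1 (adjusted p = 0.0757), 2 (0.124) or 3 (0.0598). Mitf lost its call without P5 library 1 (adjusted p = 0.0663) or 3 (0.0681) or P12 library 2 (0.057). Fos, part of the AP-1 factor that precursors need, rose from 216 ± 22.7 to 521 ± 135 normalized counts (SD, n = 4 each, log2 fold change 1.27, edgeR adjusted p = 5.96e-05). Tyrobp, the adaptor DAP12 that carries costimulation, rose by 0.73 (adjusted p = 0.00456). Its partner Trem2 had 51.1 ± 6.96 and 51.0 ± 4.99 normalized counts (SD, n = 4 each), a log2 fold change of -0.01 with an SE of 0.19 (adjusted p = 0.975). Spi1, which encodes PU.1, was at 0.33 (SE 0.17, adjusted p = 0.117; 0.0437 without P12 library 4), and Traf6, the adaptor of RANK, was at -0.19 (SE 0.08, adjusted p = 0.0709). Many of these factors act in all cells, and the largest change of the list was that of Junb, 2.36 (adjusted p = 2.49e-09), named after its value was seen. Traf6 was called lower without P5 library 5 (adjusted p = 0.039) or P12 library 4 (0.025), whereas under total count scaling it was called higher, at 0.18 (adjusted p = 0.045), below the median of all tested genes under that scaling.

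**Figure D4:**
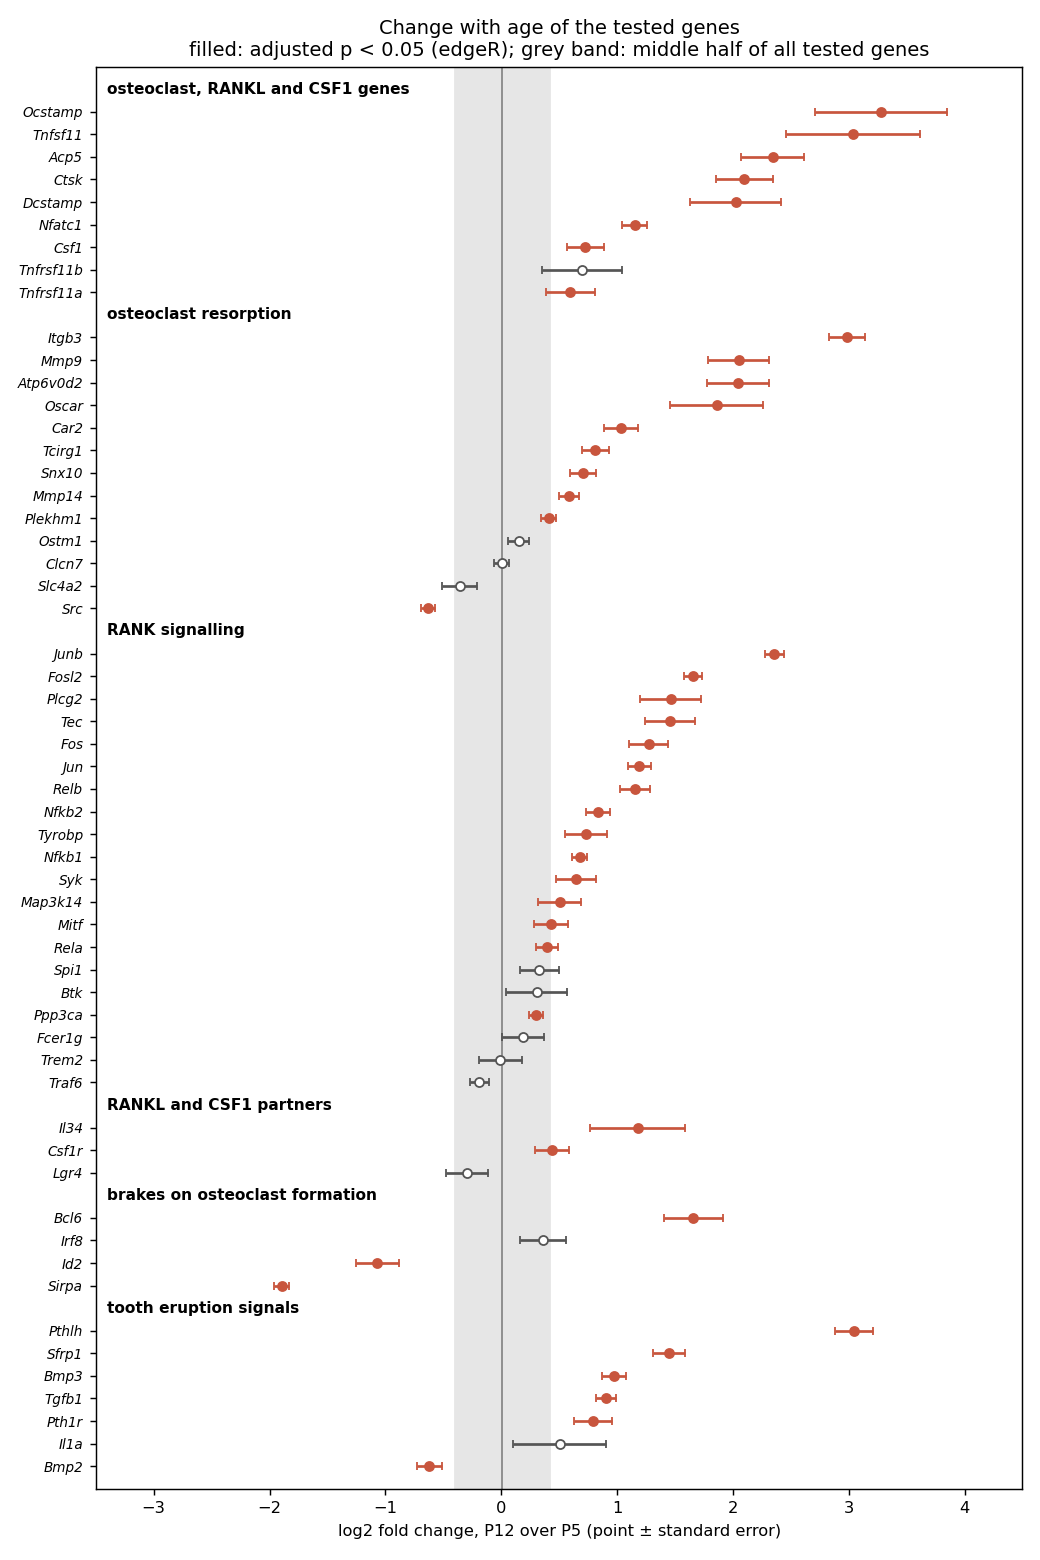
Log2 fold change of P12 over P5 with its standard error for the tested genes of each list; filled points passed an adjusted p of 0.05 in edgeR, and the grey band spans the quartiles of all tested genes, -0.40 to 0.42. Most points of the osteoclast genes and RANK signalling lie to the right of the band. Among the 4 genes listed as restraining osteoclast formation, Id2 and Sirpa lie to its left and Bcl6 to its right.

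Among the partners of RANKL and CSF1, Lgr4, a second receptor for RANKL, was at 2997 ± 445 and 2448 ± 730 normalized counts (SD, n = 4 each), a log2 fold change of -0.29 (SE 0.18, edgeR adjusted p = 0.187) that turned to 0.069 under total count scaling and was called lower without P12 library 4 (-0.52, adjusted p = 0.00201). Of 4 genes listed as restraining osteoclast formation, Id2 and Sirpa were called lower, Bcl6 was called higher and 1 was not called. This was Irf8, a transcription factor that holds precursors in the macrophage state, which was at 0.36 (SE 0.20, adjusted p = 0.144; called higher without P12 library 4, 0.0471). Over all tested genes 28.4% were called lower and 28.8% higher, and a list of 4 is too short to set against these shares. Id2 and Sirpa are made by several cell types, and the libraries do not show which cells held the transcripts.

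Among 8 genes linked to tooth eruption, 7 were tested, 5 were called higher, 1, Bmp2, was called lower and 1 was not called. Their median log2 fold change was 0.90, and over all tested genes 28.8% were called higher and 28.4% lower. Under total count scaling Bmp2 was no longer called (adjusted p = 0.0927). Pthlh, the parathyroid hormone-related peptide that induces RANKL in stroma, rose from 211 ± 36.3 to 1742 ± 359 normalized counts (SD, n = 4 each), a log2 fold change of 3.05 (SE 0.16, edgeR adjusted p = 5.83e-08). It did so in all 4 P12 pools, which ranged from 1305 to 2038. Ccl2, a chemokine for monocytes, stayed below the filter, with 3.95 ± 2.24 and 5.59 ± 3.34 normalized counts (SD, n = 4 each, two-sided exact permutation p = 0.543).

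Within the 10 genes, Ctsk and Acp5 were most like each other, with a Pearson correlation of 0.998 over the 8 libraries on log2(normalized count + 1). Outside the 10, the 5 protein-coding genes whose pattern was most like that of Ctsk were Mmp9, Nbl1, Kpna2, Fam57a and Ncapg2, with correlations from 0.991 to 0.995. For Acp5 they were Adgre5, Mmp9, Fam57a, Prelid1 and Kpna2, from 0.991 to 0.994. These were ranked among 11052 genes with a mean of at least 100 normalized counts. All points share the contrast between the ages, so any gene that differs strongly in the same direction scores highly. Mmp9, Fam57a and Kpna2 were on both lists.

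Of 8 macrophage markers, 5 were called higher at P12, against 28.8% of all tested genes, none was called lower and 3 were not called. Their median log2 fold change was 0.33, and their sum was 1800 to 2284 normalized counts at P5 and 2390 to 3088 at P12. No marker was at 0 in every library. The count of 5 fell to 3 without P5 library 1, 4 or 5 or P12 library 1 or 2, as C1qa and C1qc lost their calls. It rose to 8 under total count scaling, where 8885 of all 16440 tested genes were called higher. Relative to Csf1r, which precursors, macrophages and osteoclasts carry, the log2 ratio of Ctsk rose from 0.65 ± 0.24 to 2.28 ± 0.24 and that of Acp5 from -0.43 ± 0.26 to 1.41 ± 0.32 (SD, n = 4 each). Both had a two-sided exact permutation p of 0.0286, the smallest that 4 against 4 can give. These ratios were chosen after the data were seen.

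The P12 pools were unequal, and the difference was shared by most of the 10 genes. Libraries 1 and 2 were the higher ones for 7 genes, Acp5, Ctsk, Ocstamp, Dcstamp, Tnfsf11, Csf1 and Nfatc1, and library 4 was the lowest at P12 for 7, with Calcr in place of Csf1. Of the 4735 genes called higher, 44.3% were lowest at P12 in library 4. Divided by the mean of libraries 1 to 3, library 4 came to 0.465 for Acp5, 0.509 for Ctsk, 0.254 for Tnfsf11 and 0.838 for Nfatc1, but to 2.49 for Tnfrsf11b. Library 4 was still above every P5 library for each of the 10 genes except Calcr.
Among marker sums at P12, those of 3 oral epithelium markers were 23180, 28830 and 17980 normalized counts in libraries 1 to 3 and 2384 in library 4, against 435 to 837 at P5, and all 3 markers were called higher. Sums of 7 ameloblast markers ran the other way, at 578800, 689800, 871500 and 1076000 in libraries 1 to 4. Of these markers 3 were called higher and 4 lower. Of 8 osteoblast and osteocyte markers 5 were called higher and 1, Sost, lower (log2 fold change -5.06). Their sums were 39310 to 49100 at P5 and 60420 to 65710 at P12. Neutrophil markers were called higher in 4 of 6 cases, with sums of 1785 to 2347 and 2809 to 3794, and lymphocyte markers in 3 of 3 tested of 6 listed, with sums of 58.2 to 165 and 179 to 433. Among all tested genes, 28.8% were called higher and 28.4% lower. Of 6 fibrous mesenchyme markers 3 were called higher and 2 lower, with sums of 880800 to 1062000 and 744700 to 1009000 that are mostly Col1a1 and Col1a2. Named after their values were seen, Postn rose 15.4-fold (adjusted p = 4.32e-07) and Col3a1 12.4-fold (adjusted p = 1.36e-06). Library 4 over the mean of libraries 1 to 3 came to 0.499 and 0.519 for them and to 0.516 for the osteoblast gene Ibsp. Relative to the P12 mean, library 4 was at -0.06 log2 units for the osteoblast and osteocyte sum and -0.20 for the fibrous sum. Leaving out library 4 raised the log2 fold change of Ibsp from 1.77 to 1.95. It lowered that of Runx2 from 0.73 to 0.46 and that of Alpl from 0.64 to 0.50. The sums of 2 odontoblast markers overlapped, at 138600 to 181700 and 157600 to 183700, and 1 of them, Dmp1, was called lower. Under total count scaling none of the 3 lower calls for Col1a2, Dcn and Dmp1 was made. Of these, Dcn alone kept its call in each of the 8 fits without 1 library. The part of these cells in the results for the 10 genes was not tested. Without P12 library 4 the log2 fold changes were 2.55 for Acp5, 2.28 for Ctsk, 3.32 for Tnfsf11 and 1.21 for Nfatc1, all with an adjusted p under 0.05 in edgeR.

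**Figure D5:**
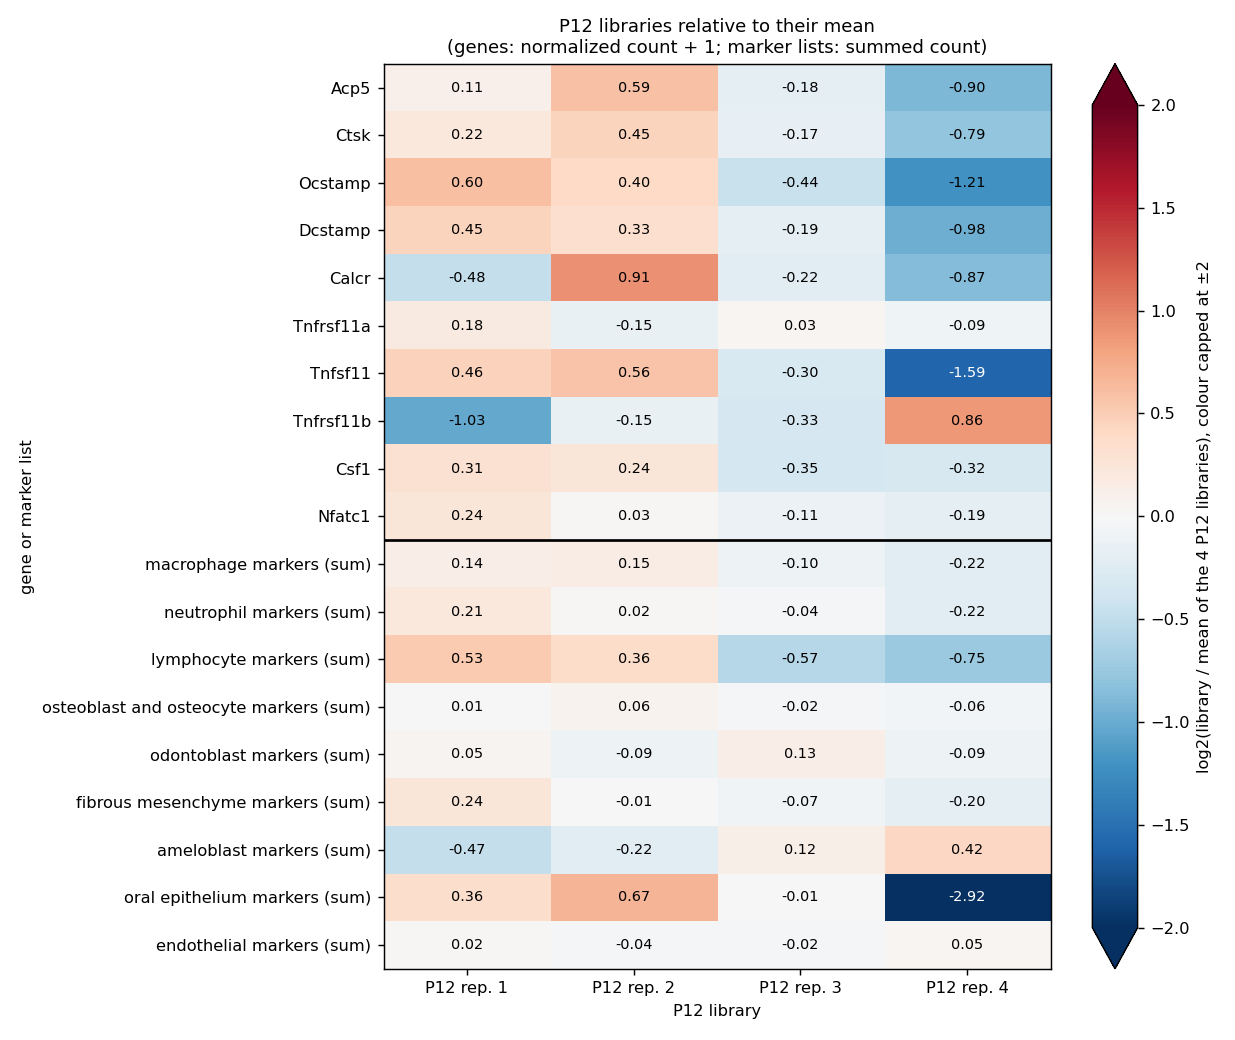
Each P12 library relative to the mean of the 4 P12 libraries, as a log2 ratio, for the 10 genes (normalized count plus 1) and for summed marker lists; blue is below and red above the mean, and colour stops at ±2. Library 4 is low for most of the 10 genes and lowest for oral epithelium markers, at -2.92, while Tnfrsf11b and the ameloblast markers are high there.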

How the data were processed

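The authors microdissected first molars, pooled enamel organs and had polyadenylated RNA sequenced. They deposited whole-number read counts per gene, without normalization, with gene coordinates and lengths. Of the gene identifiers, 54495 are in GENCODE M21 (GRCm38), 53585 with the same start and end. The submitters' processing notes name CASAVA and mm39 without a role. The aligner, the counting program and its strand setting are not given in the sources used here.

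The deposited counts were tested with edgeR 4.0.16 in R 4.3.3 (functions filterByExpr, glmQLFit and glmQLFTest, TMM scaling, age as the single term). P-values were adjusted by Benjamini and Hochberg's method over all 16440 genes kept by the filter, and 0.05 was the threshold. The study's methods name DESeq2, used here (1.42.0) as an alternative beside limma-voom (limma 3.58.1). Further settings were total count scaling, DESeq2's size factors in the edgeR fit, scaling without the 20 most abundant genes, no filter, a minimum of 10 counts per library, each pool left out in turn, a replicate block over 6 libraries, stricter thresholds, other pseudocounts for ratios, and leaving out P12 library 4 and P5 library 5 together. The last was added after the data were seen. Normalized counts were scaled to the mean effective library size, 19006280. The standard error is the size of the log2 fold change divided by the square root of F. Exact permutation tests of single values enumerated all 70 assignments of 8 libraries to the ages. In simulated counts of 16440 genes for P12 against P5, edgeR recovered 75.3% of 97 genes changed by 1 log2 unit and 96.9% of 98 changed by 2, with 9 false calls among 177. The simulation changed 200 genes, equally up and down, with independent noise and no library set apart. In the real libraries 57.2% of tested genes differed, so these rates need not hold for them.

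The 10 genes and all gene and marker lists were chosen with earlier results of these data known. The genes named are the 10, a fixed set of the listed genes (Mmp9, Atp6v0d2, Itgb3, Oscar, Siglec15, Tcirg1, Car2, Traf6, Trem2, Tyrobp, Spi1, Fos, Csf1r, Il34, Lgr4, Irf8, Pthlh and Ccl2) and the 5 genes most like Ctsk and Acp5. One further gene that belonged to the lists was taken out of them and is not reported here. Other listed genes named were chosen after their values were seen. No pair of libraries within an age agreed within sampling noise. Plots used matplotlib 3.10.9, and permutation tests scipy 1.17.1.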

Additional observations from a re-analysis of the deposited data

Results flagged for a closer look

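Atp6v0d2 in P5 library 4 stood apart from the other P5 pools, with 43.5 normalized counts against 20.6 to 24.3. This was the only case among 76 sets of 4 libraries examined, where chance gives about 1 in 20, and all P12 libraries, at 86.3 to 151, lay above it.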

How the results depend on the processing

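Of the 9 tested genes, 7 kept their call and direction in all 17 or 18 alternatives that gave them a value. How many of all tested genes did so was not counted, so this is a description. At least 10 counts in every library left untested Ocstamp, Dcstamp and Tnfsf11, which had passed the filter through their P12 reads. Of the 6 genes tested in that setting 5 were called higher, against 4182 of all 14252. The log2 fold change of Tnfrsf11a was 0.61 (adjusted p = 0.0676) with no filter, and 0.74 (0.0579) with the replicate block, in neither case past the threshold, and 0.48 to 0.68 when 1 library was left out. Tnfrsf11b reached the threshold at 1.05 (adjusted p = 0.0146) under total count scaling and at 0.71 (0.024) with no filter. It was 0.24 to 0.92 when 1 library was left out, and 0.058 (0.794) without P12 library 4 and P5 library 5. Total count scaling moved the all-gene median log2 fold change from 0.008 to 0.38 and the share of calls that were higher from 50.3% to 79.2%, so its values are relative to that shift. Of the 9411 differing genes, 3541 changed by 1 or more log2 units. The ratio of Tnfsf11 to Tnfrsf11b differed by 1.56 to 2.88 when 1 library was left out, by 1.35 with a pseudocount of 5, and by 1.67 within the 3 pairs of the replicate block. Libraries with the same number did not deviate together (correlations of 0.045, 0.005 and -0.036), and the labels do not say what the number stands for. The block called 7710 genes against 8117 in the same 6 libraries without it. The causes were not tested. Counts limit Calcr, Ocstamp, Dcstamp and Tnfsf11 at P5, each with at most 14 reads per library.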
